A study of Mus musculus with 4 samples.

Results

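The transcript Mir155hg, from which the microRNA miR-155 is cut, and 8 of its literature targets (Socs1, Inpp5d, Peli1, Jarid2, Bach1, Spi1, Cebpb and Ets1) were followed through mouse spleen. These 9 genes, of 31053 in the count matrices, are a host gene and targets taken from the literature, proposed with earlier results of these data known. The 4 groups of C57BL/6 mice gave 1 single-cell RNA library each: young wild type (WT), aged WT, aged mice without miR-146a, and aged mice that lacked miR-146a everywhere and miR-155 in their T cells (the double knockout). Per the labels, WT mice carried the floxed miR-155 allele, and aged mice were 15 months old and pooled from 3 to 6 animals per library. No source used here states the Cre line that removed miR-155, or the age and pool size of the young mice. Live CD45+ splenocytes of low forward and side scatter were sorted before 10x Genomics library preparation. With 1 library per group there were no replicates and no test between groups was possible. Genotype and age therefore cannot be told apart from differences between pools or preparations, and every interval below is a 95% interval for counting error only.

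miR-155 is a short RNA that pairs through its seed with complementary sites in messenger RNAs, mostly in 3' untranslated regions, and lowers their translation and stability. Its host gene is switched on by antigen receptor, Toll-like receptor and cytokine signals through NF-kB and AP-1 factors, and is known in activated T cells, germinal centre B cells and stimulated macrophages. miR-146a restrains NF-kB signalling by targeting Traf6 and Irak1. The comparisons ask how age, loss of miR-146a and then loss of miR-155 from T cells went with levels of the host transcript and the targets, with B and myeloid cells of the same libraries as cells in which miR-155 was not deleted.

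The mature strand miR-155-5p is shown with its seed (bases 2 to 8 from its 5' end) in capitals, from RefSeq on GRCm38.p6 at chr16:84714143-84714165, plus strand:
mmu-miR-155-5p: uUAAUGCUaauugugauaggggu
The seed matches in the targets carry the comparisons below, and 1 per gene is printed from GENCODE M21 transcripts on GRCm38, the build also called mm10. Capitals mark the letters that pair with the seed plus the A opposite the first base of miR-155; an 8mer site reads AGCATTAA, a 7mer-m8 site AGCATTA and a 7mer-A1 site GCATTAA.
Socs1 (ENSMUSG00000038037), chr16:10784206-10784228, minus strand: ctgccgctgtgccgcAGCATTAA
Inpp5d (ENSMUSG00000026288), chr1:87719823-87719845, plus strand: gagatgtttttaaaaAGCATTAA
Peli1 (ENSMUSG00000020134), chr11:21148606-21148628, plus strand: tctgctctggtcatttGCATTAA
Jarid2 (ENSMUSG00000038518), chr13:44920078-44920100, plus strand: aactgattttgttttAGCATTAA
Bach1 (ENSMUSG00000025612), chr16:87732173-87732195, plus strand: ctctatgaacagtttAGCATTAA
Spi1 (ENSMUSG00000002111), chr2:91115422-91115444, plus strand: gaccccgccggccatAGCATTAA
Cebpb (ENSMUSG00000056501), chr2:167690351-167690373, plus strand: accttttccgtttcgAGCATTAA
Ets1 (ENSMUSG00000032035), chr9:32757193-32757215, plus strand: cactctgggttttaaAGCATTAA
All of these lie in the 3' untranslated region of at least 1 annotated transcript. Peli1 was the only one of the 8 without an 8mer. Jarid2 had 2 8mers, and Bach1 had a further 7mer-m8. Among the longest 3' untranslated regions of all genes, 2.99% held an 8mer and 12.6% an 8mer or a 7mer. The Ets1 site was in 1 of 3 annotated 3' untranslated regions of that gene. A match of letters is a description and not evidence of binding.

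The authors' cell type names were read as 3 classes: T cells (Mem Cd8, Nai Cd8, Early Act Cd8, Mem Cd4 and Nai Cd4), B cells (GC Centroblast, GC Centrocyte, Trans B, Fo B and MZ B) and myeloid cells (DC/Mac, Gran, and Mono of the Ly6c- and Ly6c+ kinds). In the order young WT, aged WT, miR-146a knockout and double knockout, which is kept for every series of 4 values below, the libraries held 2904, 1755, 1514 and 2083 T cells, 3316, 3719, 2473 and 3336 B cells, and 223, 191, 715 and 919 myeloid cells. Memory cells made up 23.3%, 56.7%, 69.3% and 57.1% of the T cells. Between 2.96% and 3.09% of barcodes in each library also occurred in another. Levels are in CPM, unique molecular identifiers (UMIs) of a gene per 1000000 UMIs of the class or type. The summed T cell markers were 4508 to 5541 CPM in T cells and 113.5 to 162.1 CPM in B cells. Within the B class, GC Centrocyte cells had more of them, 1385, 1472, 386 and 447 CPM, from 44, 51, 129 and 150 cells. The summed level of 9 myeloid markers in T cells was 134, 191, 956 and 983 CPM, and in B cells 497, 553, 1141 and 1383 CPM, higher in both knockout libraries. Within the myeloid class the granulocyte share of cells went from 8.38% in aged WT to 41.0% and 50.2% in the knockouts, and the median log2 ratio of all genes in that class was -0.38 for the miR-146a knockout over aged WT. Myeloid ratios of that comparison are to be read against this shift. Of genes known to be induced by tissue dissociation, by the rule given below, 7 of 10 were called higher with age in T cells (beside 11.1% of all genes), 6 of 10 in B cells (beside 2.19%) and 4 of 8 in myeloid cells (beside 3.75%). Without miR-146a, 2 of 10 were called lower and 2 higher in T cells (beside 3.22% and 7.18%), 4 of 10 lower in B cells (beside 2.48%) and 6 of 10 lower in myeloid cells (beside 19.1%). Their part in the values that follow was not tested.

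Mir155hg (ENSMUSG00000097418, a long noncoding RNA on the plus strand, chr16:84703167-84715245) was read mainly in memory CD4 T cells and in B cells annotated GC Centroblast. In Mem Cd4 cells its level was 14.3, 26.1, 24.6 and 29.4 CPM, from 11, 26, 33 and 41 UMIs. In GC Centroblast cells it was 25.3, 18.4, 18 and 25.1 CPM, from 33, 30, 33 and 43 UMIs. These 2 types had overlapping intervals in each library and cannot be ranked. Early Act Cd8 cells had similar levels, 18.6, 46.6, 39.0 and 23.8 CPM, but from 3 to 6 UMIs in each library and 14 to 70 cells. Nai Cd4 cells lay lower, at 1.48, 7.12, 7.90 and 3.15 CPM, and Nai Cd8 cells at or below 3.22 CPM. Follicular (Fo B) cells had 1.89, 1.59, 2.90 and 3.38 CPM, and marginal zone (MZ B) cells 2.70, 4.59, 6.08 and 4.47 CPM. In monocytes 1 UMI was counted over both types and all 4 libraries, and in granulocytes also 1. DC/Mac cells had 0, 3, 4 and 3 UMIs.

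**Figure D1:**
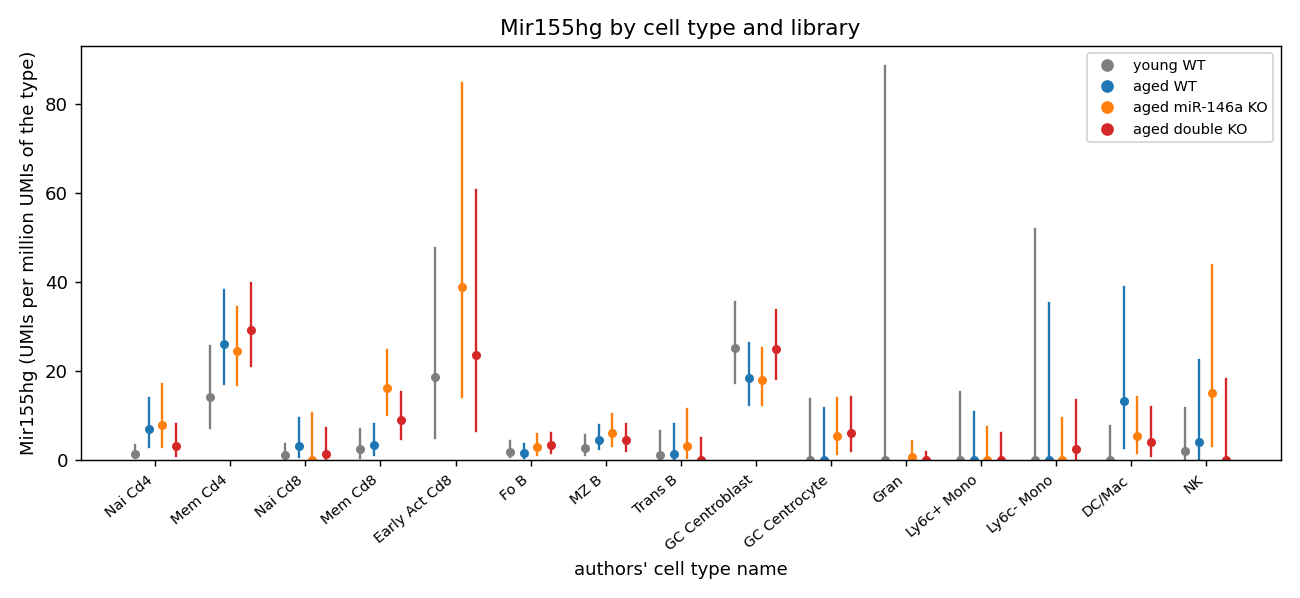
Mir155hg level (CPM, vertical axis, linear) in each annotated type (horizontal axis) for the 4 libraries; points are levels, lines exact Poisson 95% intervals, and types with under 20 cells in a library are left out. Mem Cd4 cells (14.3 to 29.4 CPM) and GC Centroblast cells (18 to 25.3 CPM) stand above the other types with many cells, and both monocyte types are at or near 0.

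Few cells carried a Mir155hg UMI. In Mem Cd4 cells the share was 2.87%, 4.30%, 4.87% and 4.86%, and 1.13%, 2.49%, 2.40% and 2.34% once each cell was thinned to 1000 UMIs. In GC Centroblast cells the thinned share was 2.24%, 1.93%, 1.65% and 2.44%. Median depth was 1751 to 2253 UMIs in Mem Cd4 cells and 3216 to 3967 in GC Centroblast cells. Granulocytes and monocytes, in which the transcript was at or near 0, serve as the background. The transcript was spread unevenly over the types of a class. Mem Cd4 cells held 42.3%, 57.8%, 49.3% and 65.1% of the T cell UMIs of Mir155hg while making up 10.8%, 29.2%, 40.7% and 33.6% of T cells, and GC Centroblast cells held 55.9% to 71.7% of the B cell UMIs from 10.6% to 17.2% of B cells.

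Over all T cells, Mir155hg was higher in aged than in young WT and higher again without miR-146a. Its level was 3.26, 9.86, 17.0 and 12.5 CPM, from 26, 45, 67 and 63 UMIs. The ratio of aged to young WT was 3.03 (1.83 to 5.12), and that of the miR-146a knockout to aged WT 1.72 (1.16 to 2.57). A gene is called higher or lower here when its ratio is at least 1.5-fold with an interval that excludes 1, and both ratios met that rule. In T cells, 11.1% of tested genes were called higher and 1.99% lower with age, and 7.18% higher and 3.22% lower without miR-146a. The age calls, 1127 higher and 202 lower, were 875 and 336 with the TMM scaling of edgeR. The mix of T cell types moved along: with every library weighted to the aged WT mix of types, the age ratio was 1.85 and the miR-146a ratio 1.39, the second no longer past the rule. It was 1.48 as a mean over cells. Within Mem Cd4 cells the ratios were 1.82 (0.870 to 4.09) with age and 0.941 (0.546 to 1.64) without miR-146a, and neither was called. Mem Cd8 cells differed: 2.41, 3.45, 16.3 and 9.02 CPM from 3, 5, 22 and 13 UMIs, with a miR-146a ratio of 4.73 (1.75 to 16).

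With miR-155 deleted in T cells, Mir155hg in T cells was 12.5 CPM against 17.0 CPM in the miR-146a knockout, a ratio of 0.736 (0.513 to 1.05) whose interval includes 1. Mem Cd4 cells had a ratio of 1.20 (0.738 to 1.95) and Mem Cd8 cells 0.552 (0.255 to 1.15). Against aged WT the T cell ratio was 1.27 (0.850 to 1.90). The host transcript thus remained detectable in T cells of the double knockout. This does not check the deletion: the hairpin lies in exon 2 of the transcript at chr16:84714140-84714204, 1041 bases before that exon's end, the reads count ends of transcripts, and no source used here states which bases the floxed allele loses. Mature miR-155 was not measured.

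In B cells the 4 levels of Mir155hg had overlapping intervals: 6.00, 5.69, 7.60 and 8.04 CPM from 46, 49, 59 and 68 UMIs. Their ratios were 0.949 (0.622 to 1.45) with age, 1.33 (0.899 to 1.99) without miR-146a and 1.06 (0.735 to 1.52) in the double knockout. The age ratio was 3.19 times as large in T as in B cells (interval of this ratio of ratios 1.70 to 5.98). For the double knockout over the miR-146a knockout the T to B ratio of ratios was 0.696 (0.427 to 1.14), so a T cell difference beyond that of B cells was not detectable at this depth. Myeloid cells had 0, 3, 5 and 4 UMIs in all, too few for a ratio.

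The genes whose levels over 42 sums of type and library were most like Mir155hg, among 9628 genes, were Odc1 (Pearson r = 0.80 of log2(CPM + 1)), Nfatc1 (0.78), Zbtb32 (0.77), Nol10 (0.76) and Atxn1 (0.74). Odc1 encodes ornithine decarboxylase, which makes polyamines, and Nfatc1 a transcription factor of antigen receptor signalling. The 42 sums share libraries and depth, so this describes the pattern only. Nfatc1 in Mem Cd4 cells was 50.7, 157, 147 and 146 CPM. Of the 8 targets, Socs1 was the most like Mir155hg, with r = 0.56 and rank 236, and Bach1 the least, with r = -0.40.

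**Figure D2:**
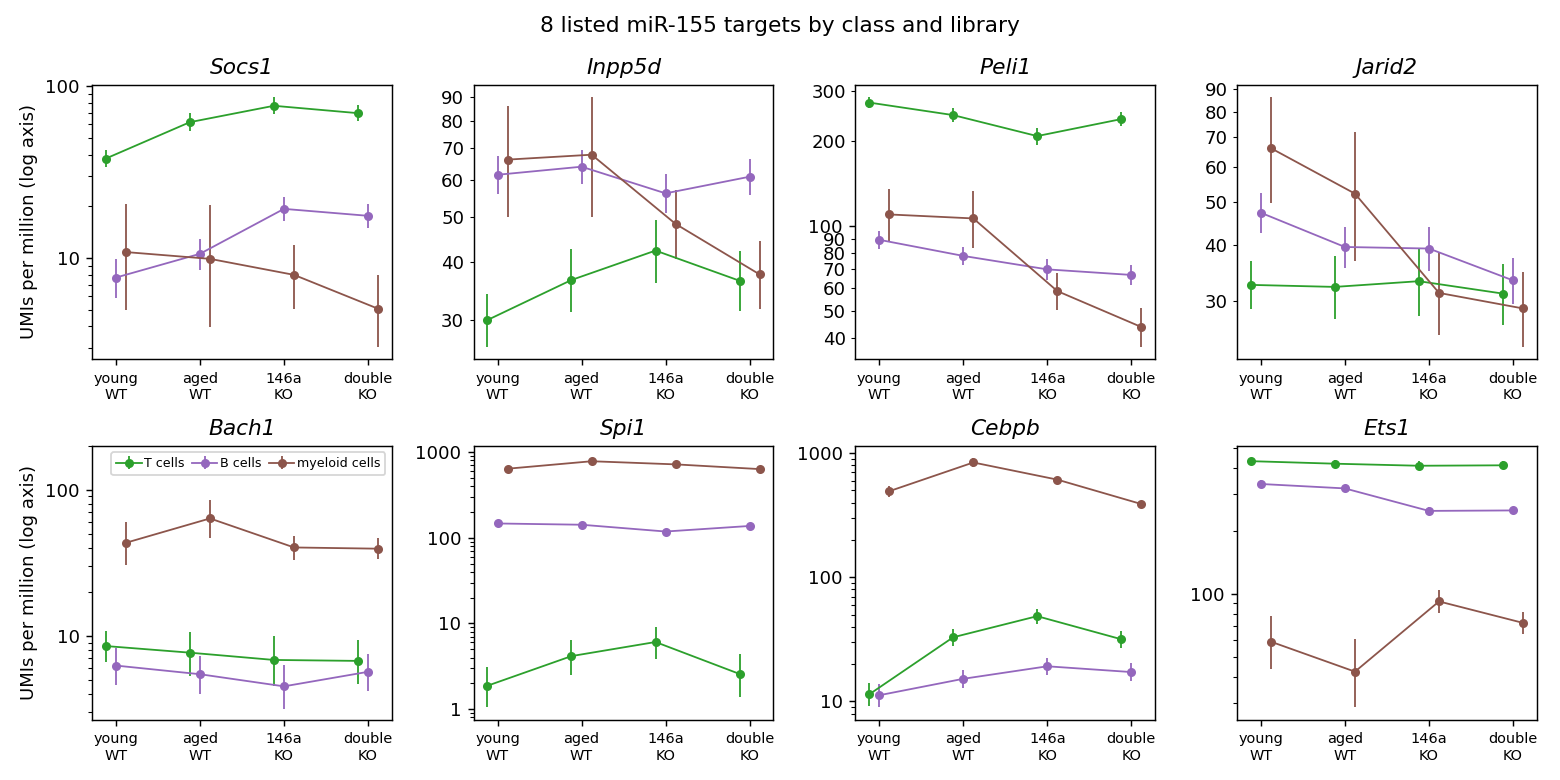
Level of each of the 8 targets (CPM, vertical log axis) in T, B and myeloid cells of the 4 libraries (horizontal axis); points are levels joined within a class and bars are exact Poisson 95% intervals. Socs1, Peli1 and Ets1 are highest in T cells, while Bach1, Spi1 and Cebpb are highest in myeloid cells.

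Socs1 encodes an inhibitor of JAK kinases that limits interferon and interleukin signalling. In T cells it was 37.9, 61.8, 77 and 69.7 CPM, from 282 to 352 UMIs per library. Young WT stood below the 3 aged libraries, with an interval that did not overlap theirs. It was called higher with age, at a ratio of 1.63 (1.38 to 1.92), and was 1.246 (1.06 to 1.47) without miR-146a, which is short of the rule. The age ratio was 1.33 at the aged WT mix of types and 1.49 with TMM scaling, both short of the rule. Nai Cd4 cells had the largest age ratio of the T types with enough UMIs, 2.17 (1.58 to 2.96), while Mem Cd4 cells had 1.00 (0.700 to 1.45). In the double knockout the T cell ratio to the miR-146a knockout was 0.906 (0.775 to 1.06). Mem Cd4 cells had 83.3 and 98.1 CPM in these libraries, a ratio of 1.18 (0.910 to 1.52), and Nai Cd4 cells 93.5 and 66.2 CPM, a ratio of 0.708 (0.510 to 0.986).

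In B cells Socs1 was 7.69, 10.6, 19.3 and 17.6 CPM. Both knockout libraries were above both WT libraries and their intervals did not overlap. The miR-146a ratio was 1.83 (1.4 to 2.40), the only one of the 8 targets called in B cells in that comparison, in which 5.72% of genes were called higher and 2.48% lower. It was highest in Trans B cells, 39.5 against 13.1 CPM (ratio 3.01, 1.36 to 7.33), and 1.00 (0.597 to 1.70) in GC Centroblast cells. The double knockout ratio in B cells was 0.911 (0.721 to 1.15), as in T cells: the T to B ratio of ratios was 0.995 (0.756 to 1.31). Myeloid cells had 7 to 23 UMIs of Socs1 per library. Split after its values were seen, Mem Cd4 cells with a Foxp3 UMI (a marker of regulatory T cells) had 118 CPM of Socs1 (95.9 to 145) against 76.3 CPM (67.7 to 85.8) in the others over all 4 libraries, while Mir155hg was 24.7 and 24.6 CPM. The libraries differed in this: Socs1 with and without a Foxp3 UMI was 145 and 52 CPM in young WT, 87.9 and 71.6 CPM in aged WT, 86.0 and 82.6 CPM in the miR-146a knockout, and 151 and 86.9 CPM in the double knockout, with overlapping intervals in the aged WT and miR-146a knockout libraries.

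Of 18 JAK, STAT and SOCS genes listed around Socs1, 1 was called higher and 1 lower in T cells of the double knockout, where 2.00% of all genes were called higher and 4.28% lower. Cish, another cytokine signalling inhibitor, was lower at 19.4 against 29.6 CPM (ratio 0.655, 0.496 to 0.864). Ifngr2, a chain of the interferon gamma receptor, was higher at 14.1 against 9.12 CPM (ratio 1.54, 1.02 to 2.37). The list's median log2 ratio was -0.02, beside -0.04 for all genes.

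Inpp5d encodes SHIP-1, a phosphatase that removes the lipid product of PI3 kinase. T cells had 30.0, 36.6, 42.3 and 36.5 CPM, from 167 to 240 UMIs. Intervals of libraries next to each other in this order overlapped, but young WT (26.4 to 34.1) lay below the miR-146a knockout (36.1 to 49.2). Ratios were 1.22 (0.994 to 1.49) with age, 1.16 (0.927 to 1.44) without miR-146a and 0.862 (0.695 to 1.07) in the double knockout. By type, Nai Cd4 cells had 35.6 and 45.0 CPM in the miR-146a and double knockouts, a ratio of 1.26 (0.786 to 2.08). Nai Cd8 cells went the other way at 49.3 and 23.3 CPM, a ratio of 0.472 (0.230 to 0.976) from 17 and 18 UMIs. B cells had more Inpp5d, 61.4, 63.9, 56.1 and 60.9 CPM, with a double knockout ratio of 1.08 (0.954 to 1.24). None of 19 SHIP-1 and PI3 kinase pathway genes was called in T cells of the double knockout, beside 2.00% of all genes called higher and 4.28% lower. The list ran from Pik3cg at 0.655 (0.422 to 1.01) to Mtor at 1.29 (0.777 to 2.19), with a median log2 ratio of -0.05.

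Peli1 encodes Pellino 1, a ubiquitin ligase of Toll-like and T cell receptor signalling. It carries the shorter 7mer-A1 site and a 6mer seed match, but no 8mer. T cells had 273, 246, 207 and 238 CPM, from 819 to 2177 UMIs. The miR-146a knockout was the lowest, with an interval (194 to 222) below those of the other 3. Of the 8 targets it was the only one with an interval above 1 in T cells of the double knockout: the ratio to the miR-146a knockout was 1.15 (1.05 to 1.26), short of 1.5-fold. Against aged WT it was 0.968 (0.891 to 1.05). Pooled after the data were seen, memory T cells had 197 and 208 CPM in the miR-146a and double knockouts, a ratio of 1.06 (0.94 to 1.19). Naive T cells had 244.5 and 289 CPM, a ratio of 1.18 (1.02 to 1.37). Nai Cd8 cells had 323, 301, 197 and 298 CPM, the third value from 93 cells. Their double knockout ratio was 1.51 (1.15 to 2.01) after a miR-146a ratio of 0.655 (0.495 to 0.857). Mem Cd8 cells had a double knockout ratio of 1.19 (0.983 to 1.43), Nai Cd4 cells 1.06 (0.893 to 1.27) and Mem Cd4 cells 0.980 (0.838 to 1.15).

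In B cells Peli1 was 89.1, 78.1, 70.0 and 66.9 CPM, with a double knockout ratio of 0.956 (0.848 to 1.08). Myeloid cells had 110, 106, 58.6 and 43.7 CPM and a double knockout ratio of 0.746 (0.598 to 0.930). The T cell ratio was 1.20 times the B cell ratio (1.04 to 1.39) and 1.54 times the myeloid ratio (1.22 to 1.94). Among Mem Cd4 cells, those with a Foxp3 UMI had 345 CPM (306 to 388) and the others 223 CPM (208 to 239), in the same split chosen after seeing values. By library those with the UMI had 325 to 371 CPM and the others 209 to 245 CPM, with overlapping intervals in young WT and aged WT. Of 10 measured Pellino and TRAF signalling genes, 1 was called lower in T cells of the double knockout and none higher, beside 4.28% and 2.00% of all genes. It was Traf6, at 7.73 against 12.9 CPM (ratio 0.598, 0.384 to 0.926). In myeloid cells 2 of 11 were called lower, Traf6 among them, beside 4.71%. Traf6 is itself a known target of miR-146a, absent from both libraries of this comparison.

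**Figure D3:**
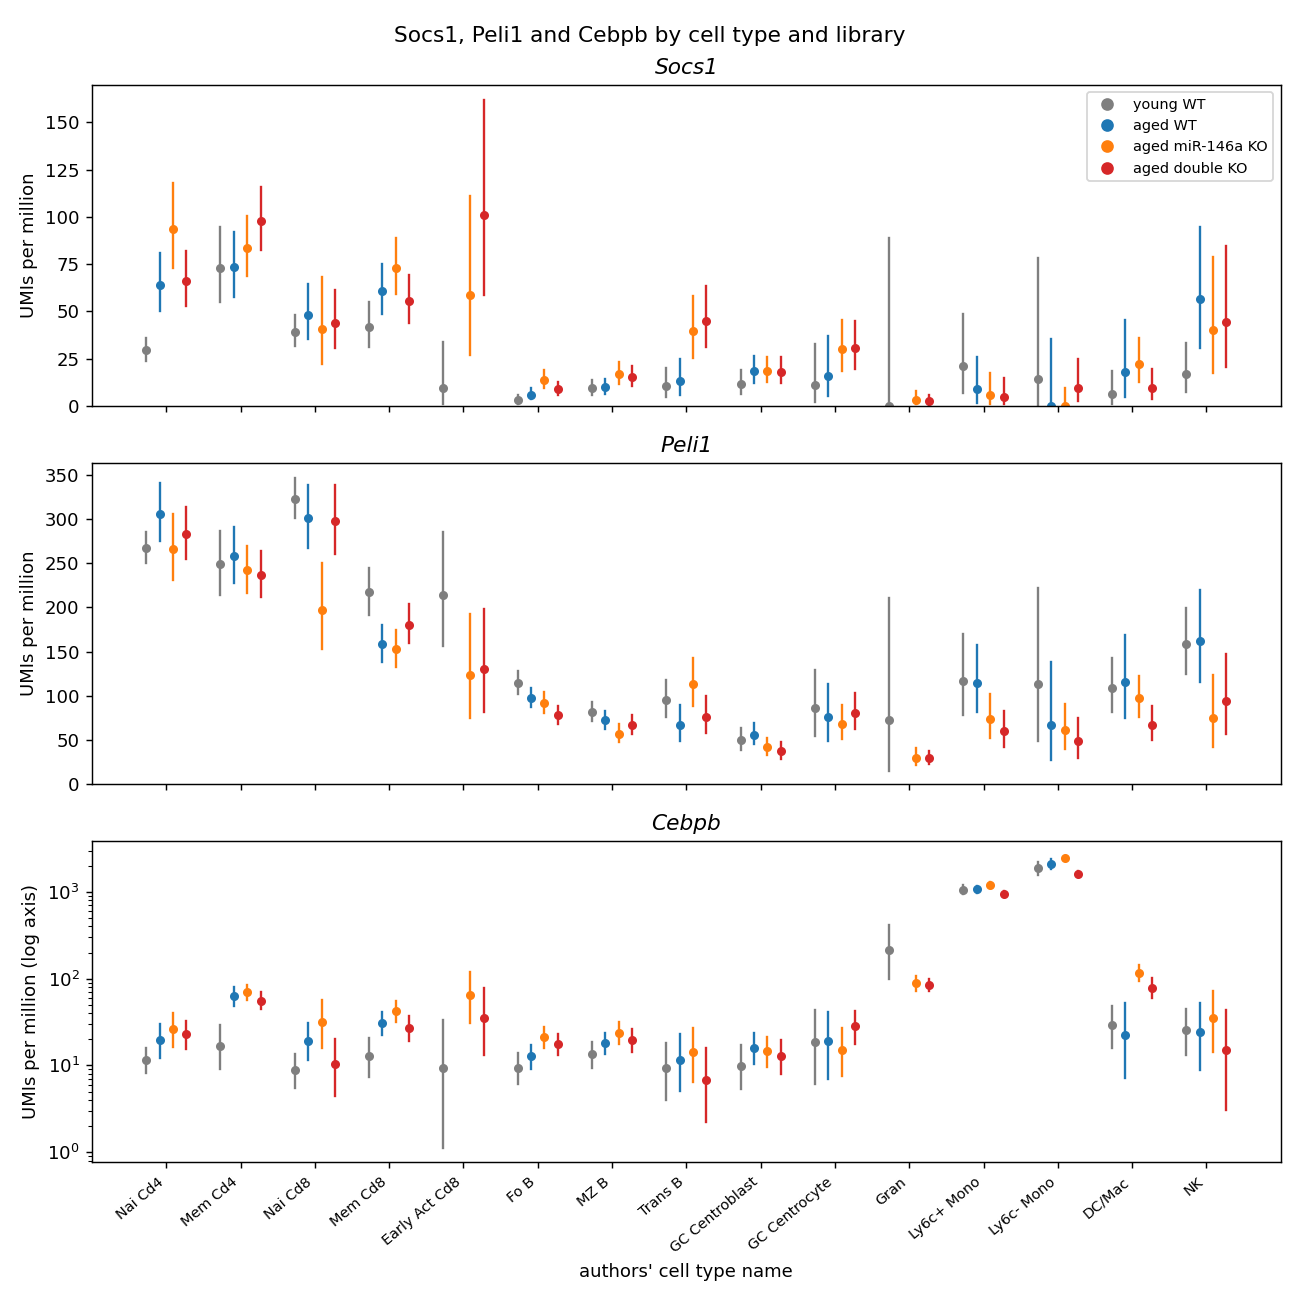
Socs1, Peli1 (linear axes) and Cebpb (log axis) levels in CPM by annotated type for the 4 libraries; points are levels, lines exact Poisson 95% intervals, and types with under 20 cells in a library are left out. Peli1 in Nai Cd8 cells dips to 197 CPM in the miR-146a knockout, and Cebpb in Ly6c- Mono cells is 2460 CPM there and 1609 CPM in the double knockout.

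Jarid2 encodes a protein that accompanies the histone methylating complex PRC2. In T cells it was 32.6, 32.2, 33.2 and 31.1 CPM, from 131 to 260 UMIs, with overlapping intervals. The double knockout ratio was 0.938 (0.739 to 1.19). Mem Cd4 cells had the highest level of the 4 larger T types in every library, 45.5, 52.2, 52.1 and 58.0 CPM, against 15.6 to 29.7 CPM in Mem Cd8 cells. B cells had 47.3, 39.6, 39.3 and 33.3 CPM, with a double knockout ratio of 0.848 (0.718 to 1.00). None of 9 measured PRC2 genes was called in T cells of the double knockout, beside 2.00% of all genes called higher and 4.28% lower. Their extremes were Ezh2, the methyltransferase, at 0.736 (0.581 to 0.931) and Suz12 at 1.12 (0.885 to 1.43).

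Bach1 encodes a haem-binding repressor of antioxidant genes such as Hmox1. It was sparse in T cells, at 8.51, 7.67, 6.84 and 6.74 CPM from 68, 35, 27 and 34 UMIs, and its double knockout ratio of 0.985 (0.577 to 1.70) leaves a wide range. B cells had 4.51 to 6.26 CPM. Monocytes held the most, 60.0 to 82.4 CPM in Ly6c+ Mono and 84.6 to 134 CPM in Ly6c- Mono cells. The double knockout ratio in Ly6c- Mono cells was 1.03 (0.649 to 1.63). Of 11 measured BACH1 partners and repressed genes, 1 was called lower in T cells of the double knockout and none higher, beside 4.28% and 2.00% of all genes. It was Hmox1 (7.53 against 11.9 CPM, ratio 0.633, 0.401 to 0.991), and Bach2 was 1.41 (1.01 to 1.99). Hmox1 was also among those called lower in B cells (1 of 11, beside 1.49%) and in myeloid cells (3 of 10, beside 4.71%).

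Spi1 encodes PU.1, a master factor of myeloid and B cells. Myeloid cells had 640, 783, 719 and 634 CPM and B cells 147, 142, 118 and 138 CPM. T cells had 1.88, 4.16, 6.08 and 2.58 CPM, from only 15, 19, 24 and 13 UMIs. The T cell ratio was called higher with age (2.22, 1.07 to 4.69) and lower in the double knockout (0.424, 0.198 to 0.866). These T cell levels were under 1% of the myeloid level in each library. The myeloid marker sum in the same cells went from 134 and 191 CPM in WT to 956 and 983 CPM in the knockouts. The B cell marker sum in T cells was 181, 235, 144 and 99.7 CPM. The part of either in the Spi1 values was not tested. In B cells the ratio was 0.833 (0.764 to 0.908) without miR-146a and 1.16 (1.06 to 1.27) in the double knockout, and the double knockout stood at 0.968 (0.892 to 1.05) of aged WT. Fo B cells showed the same pattern, 148, 128 and 154 CPM in the 3 aged libraries. MZ B cells differed, at 148, 109.5 and 119 CPM, and their double knockout level stayed at 0.805 (0.688 to 0.941) of aged WT.

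Cebpb encodes C/EBP beta, a factor of monocyte and emergency granulocyte formation. In T cells it was 11.4, 32.9, 48.6 and 31.7 CPM, from 91, 150, 192 and 160 UMIs. Young WT was lowest, and the miR-146a knockout had an interval (42.0 to 56.0) above those of the other 3. The age ratio was 2.88 (2.21 to 3.79), the largest of the 8 targets in T cells, and held at 2.55 with the aged WT mix of types. The ratio was 1.48 (1.19 to 1.84) without miR-146a and 0.652 (0.525 to 0.808) in the double knockout, and the double knockout stood at 0.964 (0.767 to 1.21) of aged WT. Mem Cd4 cells had 16.9, 63.2, 69.9 and 55.9 CPM, with an age ratio of 3.74 (2.04 to 7.40) and a double knockout ratio of 0.798 (0.584 to 1.09). Mem Cd8 cells had 12.9, 31.1, 42.3 and 27.1 CPM, with a double knockout ratio of 0.639 (0.414 to 0.977).

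The myeloid marker sum in T cells was 134, 191, 956 and 983 CPM. Within the miR-146a knockout library Cebpb was 69.9 CPM in Mem Cd4 and 26.3 CPM in Nai Cd4 cells, with myeloid marker sums of 1120 and 971 CPM. In the same library the sum was 359100 CPM in granulocytes and 18690 CPM in Ly6c- Mono cells, with Cebpb at 88.2 and 2460 CPM. The part of myeloid RNA in the Cebpb level of T cells was not tested. With T cells carrying 2 or more UMIs of other classes' markers left out (S100a8, S100a9, Lyz2 and Cst3 not counted), a step chosen after seeing the data, the double knockout ratio was 0.674. It was 0.671 with TMM scaling and 0.686 at the aged WT mix of types, so the call, whose bound for a lower gene is the inverse of 1.5, rests on a narrow margin.

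Cebpb was lower in myeloid cells of the double knockout too, in which miR-155 was not deleted: 494, 841, 612 and 389 CPM, with a ratio of 0.636 (0.593 to 0.682) to the miR-146a knockout. It was the only target called in myeloid cells in that comparison, in which 1.35% of genes were called higher and 4.71% lower, and it stood at 0.687 with TMM scaling and 0.709 at the aged WT mix of types, short of the rule. Ly6c- Mono cells had 1874, 2088, 2460 and 1609 CPM and a ratio of 0.654 (0.592 to 0.723), and Ly6c+ Mono cells 0.790 (0.703 to 0.887). Granulocytes had 88.2 and 84.6 CPM, a ratio of 0.959 (0.751 to 1.23). The T and myeloid ratios did not differ beyond counting error (ratio of ratios 1.03, 0.822 to 1.28), and the T to B ratio of ratios was 0.726 (0.532 to 0.989). In B cells Cebpb was 11.2, 15.2, 19.2 and 17.3 CPM. The whole myeloid class was called higher with age (1.70, 1.5 to 1.94), but at the aged WT mix of types that ratio was 0.937, and without miR-146a it was 0.728 (0.662 to 0.800) for the class and 1.27 at that mix.

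Ets1 encodes a lymphocyte transcription factor that restrains terminal differentiation. T cells had 432, 420, 410 and 412 CPM, from 1620 to 3447 UMIs, and a double knockout ratio of 1.00 (0.941 to 1.07), the narrowest interval of the 8. CD4 types were higher than CD8 types in each library, for example 580 CPM in Mem Cd4 against 332 CPM in Mem Cd8 cells of aged WT. B cells had 336, 320, 249 and 251 CPM. Both knockout libraries were below both WT libraries without overlap of intervals; the miR-146a ratio was 0.780 (0.736 to 0.827) and the double knockout ratio 1.00 (0.945 to 1.07). The lower level was seen in Fo B (0.826, 0.757 to 0.901), MZ B (0.723, 0.645 to 0.810) and Trans B cells (0.721, 0.587 to 0.884), but GC Centroblast cells had 1.10 (0.927 to 1.3). GC Centroblast cells were lower in the double knockout instead, at 131 against 174 CPM (ratio 0.756, 0.634 to 0.899). In DC/Mac cells Ets1 was 48.0, 48.8, 119 and 41.2 CPM. T cell markers exceeded myeloid and dendritic markers in 27 of 158 DC/Mac cells of the miR-146a knockout, against 4 of 106, 2 of 44 and 1 of 145 in the others, and in the cells led by myeloid or dendritic markers the double knockout ratio was 0.531 (0.321 to 0.866), against 0.345 (0.220 to 0.528) for the type as annotated.

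Of 13 measured ETS and C/EBP genes besides the members, 1 was called lower in T cells of the double knockout and none higher. Of all genes 4.28% and 2.00% were. The lower one was Irf8, a partner of PU.1, named because it was the only one called, at 29.1 against 44.3 CPM (ratio 0.657, 0.524 to 0.823). The extremes of the list by ratio were Cebpd at 0.587 (0.280 to 1.21) and Fli1 at 1.07 (0.907 to 1.26). The median log2 ratio was -0.22, beside -0.04 for all genes.

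**Figure D4:**
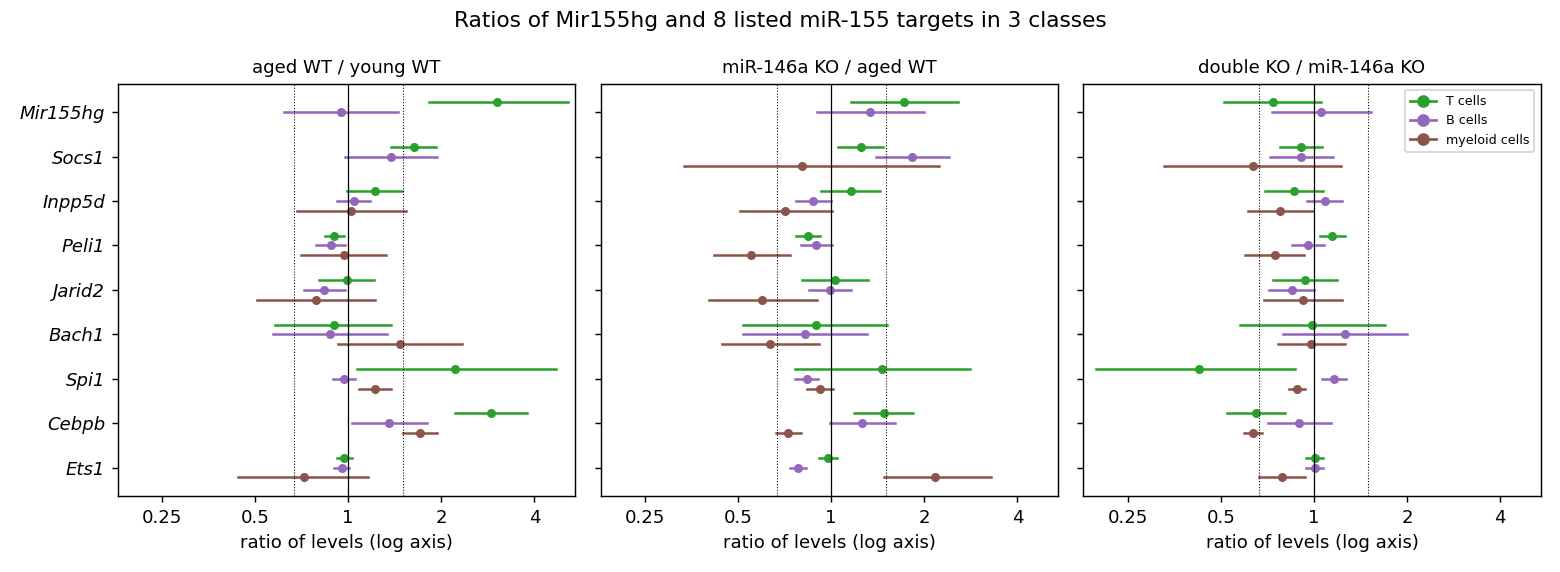
Ratio of levels (horizontal log axis) of Mir155hg and the 8 targets for aged over young WT, miR-146a knockout over aged WT, and double knockout over miR-146a knockout, in T, B and myeloid cells; lines are conditional 95% intervals for counting error, dotted lines mark 1.5-fold, and genes with under 20 UMIs over both libraries are left out. In the double knockout panel the T cell points of Socs1, Inpp5d, Jarid2, Bach1 and Ets1 have intervals that include 1, Peli1 is at 1.15, and Spi1 and Cebpb are at 0.424 and 0.652.

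Read together, none of the 8 targets was called higher in T cells when miR-155 was deleted there, and 2 were called lower (Spi1 from 37 UMIs in both libraries, and Cebpb by the narrow margin given above). All 8 had 20 or more UMIs over both libraries. Of all tested genes, 2.00% were called higher and 4.28% lower. The lowest of the 8 ratios was 0.424 and the highest 1.15, with a median log2 ratio of -0.12. Against aged WT, all 8 intervals in T cells included 1. In B cells of the double knockout none of the 8 was called, with 1.12% of genes called higher and 1.49% lower. Within single T types of at least 50 cells per library, 24 target ratios could be read: 1 was called higher (Peli1 in Nai Cd8 cells) and 2 lower (Inpp5d in Nai Cd8 and Cebpb in Mem Cd8 cells). Over all genes in those types, 2.41% of ratios were called higher and 3.53% lower. In B types 36 ratios could be read and none was called, beside 1.86% higher and 1.75% lower over all genes.

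With age, 3 of the 8 were called higher in T cells (Socs1, Spi1 and Cebpb) and none lower, beside 11.1% and 1.99% of genes. In B cells none of 8 was called, beside 2.19% called higher and 1.90% lower. In myeloid cells 7 could be tested and 1, Cebpb, was called higher, beside 3.75% higher and 4.98% lower. Without miR-146a, none of the 8 was called in T cells. In myeloid cells 1, Ets1, was called higher at 2.17 (1.48 to 3.28), and 3 lower: Peli1 at 0.553 (0.419 to 0.736), Jarid2 at 0.597 (0.403 to 0.901) and Bach1 at 0.633 (0.445 to 0.914). There 5.21% of genes were called higher and 19.1% lower. At the aged WT mix of types these 4 ratios were 1.38, 0.725, 0.890 and 0.898, and none passed the rule. With TMM scaling Ets1 was 2.82 and the other 3 were 0.720, 0.777 and 0.824. In the same cells and comparison 6 of 10 dissociation genes were called lower and none higher, with a median log2 ratio of -1.05 beside -0.38 for all genes, and their part was not tested.

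Genes with a miR-155 site were then read as a whole. In T cells of the double knockout, 329 genes with an 8mer in their longest 3' untranslated region had a median log2 ratio of -0.03, 1056 genes with a 7mer but no 8mer -0.04, and 8324 genes with neither -0.04. In B cells, where miR-155 was not deleted, the same 3 groups had 0.01, 0.03 and 0.03. For the miR-146a knockout over aged WT the T cell medians were 0.02, 0.06 and 0.06, in the same order.

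**Figure D5:**
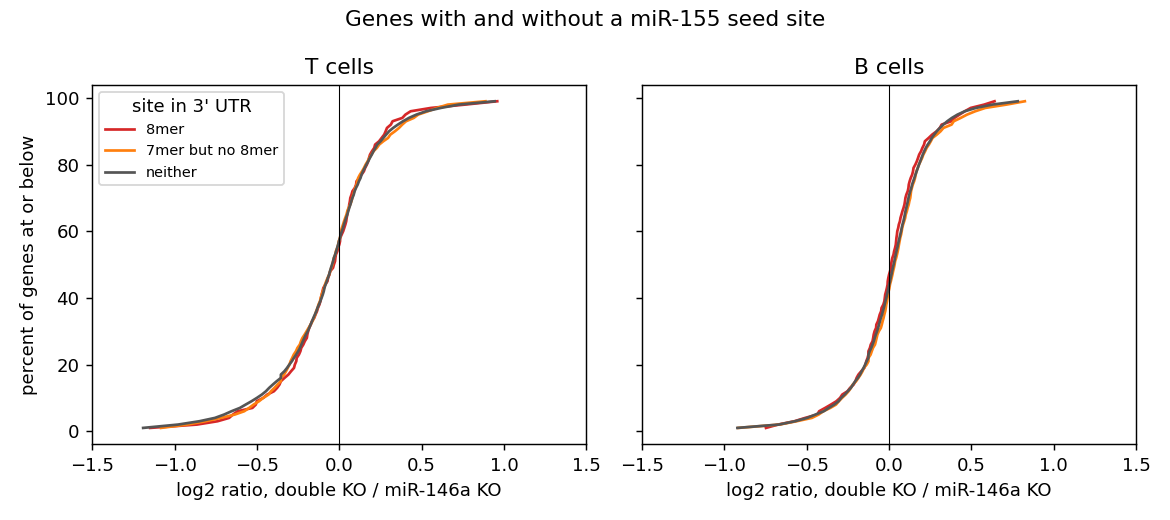
Cumulative distribution of log2 ratios (horizontal axis) of the double knockout over the miR-146a knockout for genes with an 8mer site, a 7mer but no 8mer, or neither in the longest 3' untranslated region; the vertical axis is the percent of genes at or below the ratio, from the 1st to the 99th percentile, in T cells (left) and B cells (right). The 3 curves lie on each other in both classes, with medians of -0.03, -0.04 and -0.04 in T cells.

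A second list of 23 literature targets of miR-155, chosen with earlier results of these data known, was read beside the 8. In T cells of the double knockout 20 were measured and none was called, beside 2.00% of all genes called higher and 4.28% lower. The median log2 ratio was -0.06. Il13ra1, a chain of the interleukin 13 receptor, had the highest ratio, 2.03 (0.949 to 4.73), from 26 and 10 UMIs. Maf, a factor of follicular helper and regulatory T cells, had the lowest, at 156 against 223 CPM (ratio 0.698, 0.633 to 0.769). Maf was 6.67 (5.49 to 8.15) in aged over young WT and 2.04 (1.83 to 2.28) without miR-146a, and 1.42 (1.27 to 1.60) in the double knockout over aged WT. With age 5 of 19 measured list members were called higher in T cells and none lower, beside 11.1% and 1.99% of all genes.

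The last list held 14 genes of NF-kB, AP-1, IRF and related factors (Foxp3 and Myb among them), families known to switch on Mir155hg. In T cells with age, 8 of 14 were called higher and none lower, beside 11.1% and 1.99% of all genes. The median log2 ratio was 0.89 beside 0.11 for all genes. Of these 8, Fos, Fosb, Jun and Junb also stand on the list of dissociation genes, and the other 4 were Nfkb2, Batf, Irf4 and Foxp3. Without miR-146a, 5 were called higher in T cells and 1, Fos, lower, beside 7.18% and 3.22% of all genes. The median was 0.37 beside 0.06. Other classes differed. In myeloid cells 10 of 13 were called lower and 1 higher, beside 19.1% and 5.21%, with a median of -0.81 beside -0.38. In B cells 2 of 14 were called lower and 1 higher, beside 2.48% and 5.72%. In T cells of the double knockout none was called, with a median of -0.24 beside -0.04. None was called in B cells there, and 1 of 13, Batf, was called lower in myeloid cells, beside 4.71%. Batf, an AP-1 factor of activated T cells, was one of the 5 called higher in T cells without miR-146a, chosen here after its values were seen: 35.7, 97.3, 218 and 171 CPM. Fosb had the lowest double knockout ratio of the list in T cells, 0.667 (0.392 to 1.13), and Myb the highest, 1.00 (0.671 to 1.51). Of 10 measured dissociation genes, 2 were called lower in T cells of the double knockout and none higher, beside 4.28% and 2.00% of all genes. They were Hspa1a at 0.283 (0.138 to 0.545) and Hspa1b at 0.359 (0.190 to 0.654), the second named because it was called. Hspa1a was among the genes called lower in B cells (1 of 9, beside 1.49%) and in myeloid cells (2 of 10, beside 4.71%) as well. The highest of that list in T cells was Hsph1 at 1.27 (1.01 to 1.62), and the list's part in the other values was not tested.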

How the data were processed

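The authors deposited raw UMI counts per gene and barcode (unit: counts), made with Cell Ranger 3.0.0 on mm10 per the submitters' processing notes, and a cell type name per barcode in a deposited metadata table (unit: other) for 24143 of 27577 barcodes; no source used here says how the names were made. Both 3' and 5' kits appear in the labels. Libraries held 17561683 to 22399381 UMIs.

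Counts were summed per type or class and library (numpy 2.4.6, scipy 1.17.1, pandas 2.3.3) and given as CPM with exact Poisson intervals; ratios have conditional binomial intervals and ratios of ratios log-scale Poisson intervals, all at 95%. The 1.5-fold rule was read over genes with at least 20 UMIs, and list medians add 1 count to each sum. Alternatives used edgeR 4.0.16 (TMM factors) and DESeq2 1.42.0 (size factors) for scaling only. Doublets were treated as the authors named them (T/B dbl, left out, as was NK).

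Members and lists were chosen with earlier results of these data known. Genes named were the members, each list's highest and lowest ratio in T cells of the double knockout, and the 5 genes most like Mir155hg; others are marked where they stand. Immunoglobulin, T cell receptor and sex-linked genes were not named.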

Additional observations from a re-analysis of the deposited data

Results flagged for a closer look

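Several ratios went in opposite directions in different classes of the same libraries, with intervals on either side of 1; these differences were not tested against replicates. Without miR-146a, Cebpb had a ratio of 1.48 in T cells and 0.728 in myeloid cells, though the myeloid value was 1.27 at the aged WT mix of types. In the same comparison Ets1 had 0.780 in B cells and 2.17 in myeloid cells, though the myeloid value was 1.38 at that mix, short of the rule. In the double knockout over the miR-146a knockout, Peli1 had 1.15 in T cells and 0.746 in myeloid cells. Spi1 had 0.424 in T cells against 1.16 in B cells, and 1.16 in B cells against 0.881 in myeloid cells.

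Barcodes without a cell type name, left out of every comparison above, held more of some members in the knockouts than in aged WT, with intervals that do not overlap. In the miR-146a knockout Socs1 was 19.2 against 9.64 CPM, Bach1 10.2 against 3.93 CPM, Spi1 183 against 95.7 CPM and Cebpb 160 against 21.4 CPM. In the double knockout Spi1 was 150 against 95.7 CPM and Cebpb 74.9 against 21.4 CPM. Cebpb was thus lower in the double knockout than in the miR-146a knockout among these barcodes as well. In aged WT, the miR-146a knockout and the double knockout, 92 of 1056, 271 of 870 and 240 of 703 barcodes were above 9000 UMIs. Among those of 9000 UMIs or fewer, Spi1 was 122.9, 98.47 and 99.96 CPM and Cebpb 19.3, 65.0 and 40.4 CPM. There the Socs1 and Bach1 intervals of the miR-146a knockout overlapped those of aged WT, and the Cebpb intervals of the knockouts overlapped each other.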

How the results depend on the processing

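No paired analysis was possible because each group had 1 library; for the same reason no replicate could be left out. Intervals hold counting error only, and Mir155hg, Bach1 in lymphocytes and Spi1 in T cells rest on under 100 UMIs per library. Alternatives were TMM or size-factor scaling, a total without abundant gene families and a mean over cells. Further ones left out cells under 1000 UMIs or shared barcodes, or used the aged WT mix of types. All left the Mir155hg ratios in T and B cells within the main intervals. The 8 target ratios in T cells of the double knockout also stayed within theirs. Several ratios then missed the 1.5-fold bound, as given beside each. The ratios of ratios stayed within their main intervals too, but TMM and size-factor scaling were not run for them. The milder marker filter, chosen after seeing the data, also left all of these within the main intervals.

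Leaving out every cell with any UMI of another class's markers kept 112 of 1514 and 180 of 2083 T cells and 100 and 166 B cells of the knockouts. It moved most values, and with 0 UMIs left some had no value. The Spi1 double knockout ratio in T cells, called lower above, was among those without a value. Mir155hg then had T ratios of 0.812 (miR-146a, reversed) and 1.13 (double knockout) and B ratios of 0.444 (age) and 7.41 (miR-146a). Double knockout T ratios were Socs1 0.717, Inpp5d 0.235, Peli1 1.63, Jarid2 0.689, Cebpb 0.493 and Ets1 0.792. T to B ratios of ratios were Inpp5d 0.369, Peli1 2.53, Jarid2 0.580, Cebpb 0.380 and Ets1 0.510, and T to myeloid Inpp5d 0.294, Peli1 2.06, Jarid2 0.600 and Cebpb 0.747; the fewer cells are part of this filter's construction. Cebpb in myeloid cells with age was 0.937 at the aged WT mix of types (reversed).

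A rule of 25% higher, or the inverse, called 1703 genes higher and 416 lower in T cells with age, 1196 and 564 without miR-146a, and 367 and 818 in the double knockout. Genes called lower with age were 202, 336 with TMM and 334 with size factors. The cause was not tested. Alternatives on gene counts were run for T cells only, and those on lists for the medians in the double knockout only.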
